A study of Mus musculus with 6 samples.

Results

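A set of 10 genes of the DNA damage kinase pathway was followed through an array study of mouse neurospheres: the kinase genes Atm, Atr, Chek1 and Chek2, and H2ax, Trp53bp1, Mdc1, Nbn, Brca1 and Ung, whose products those kinases or the phosphatase Wip1 act on. The members were chosen by name, as every probe that the platform annotation assigns to one of these 10 symbols, which gave 26 of the 45281 probes on the array. Neurospheres are balls of cells that grow from cultured neural progenitors, here taken from the subventricular zone, where new neurons arise in the adult brain. The mice were 18 months old. The arrays were 1 of Wip1Tg secondary spheres, 2 of Wip1Tg primary spheres, 2 of wt secondary spheres and 1 of wt primary spheres, each from untreated spheres kept with EGF and FGF for 14 days in vitro. Wip1Tg (spelled Wip1-Tg in the labels) stands for mice with a transgene for Wip1, the protein encoded by Ppm1d, and wt for their wild-type comparison. The promoter of the transgene, the cells in which it acts, the strain and the number of animals behind each array are left unstated by the labels. Nothing there says that arrays of 1 group came from separate animals or cultures, so a p-value measures only the spread between these samples, which may be technical.

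ATM and ATR are large protein kinases that start the response to damaged DNA, ATM chiefly at double-strand breaks and ATR at single-stranded DNA of stalled replication forks. They switch on the checkpoint kinases CHK2 (Chek2) and CHK1 (Chek1) and phosphorylate the histone H2AX around a break, where MDC1, the NBN subunit of the MRN complex, BRCA1 and the product of Trp53bp1 then collect. WIP1 is a phosphatase that removes such phosphates and so closes the response, and the uracil-DNA glycosylase UNG, which starts base excision repair, is another of its known substrates. The arrays measured RNA, so neither phosphorylation nor protein was read.

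Between 17623 and 18699 probes (38.9 to 41.3%) were above background on each array, and the median raw intensity lay between 150.9 and 168.4. Of 11 markers of neural stem and progenitor cells 10 had a probe, of which 7 were measured (Nes, Sox2, Egfr, Hes5, Olig2, Fabp7 and Vim, detected on all 6 arrays) and 2 were detected on no array. Of the markers looked for, 7 of 9 for microglia, 4 of 6 for endothelium and 5 of 8 for mural cells and fibroblasts were detected on no array. Although the labels state matched gender, the 4 probes of Xist, transcribed from the inactive X chromosome, were detected on the 3 secondary arrays and on Wip1Tg primary 2, and on neither Wip1Tg primary 1 nor wt primary 1. Kdm5d, another sex-linked gene, was detected by 1 probe, on these latter 2 arrays alone. It read 6.82 (log2 intensity) in wt primary 1 and 6.32 in Wip1Tg primary 1. Uty, also sex-linked, had 1 probe detected, on all 3 primary arrays and wt secondary 1. Xist and Kdm5d therefore moved partly with passage, and a difference in sex cannot be fully told apart from passage. Within wt they followed passage completely, so there sex and passage cannot be told apart at all. Among the primary arrays only Wip1Tg primary 2 had Xist signal, so the genotypes were not balanced for it there. The passage results of the members are also given for the 4 arrays with Xist signal, of which 1, Wip1Tg primary 2, is primary. Of 4 Ppm1d probes 1 was above background, reading 10.24 (log2 intensity) in the Wip1Tg secondary array and 9.53 and 9.71 in the Wip1Tg primary arrays, against 10.13 and 9.98 in the wt secondary arrays and 9.29 in the wt primary array. Its genotype difference, Wip1Tg minus wt, was 0.26 (limma adjusted p = 0.5395), and a probe outside the transgene's sequence would not report it.

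The first question was which of these genes could be measured at all. A probe counted as detected on an array when its detection p, its rank against negative control beads, was under 0.05, and as measured when it was detected on at least 3 of the 6 arrays. By this rule 10 of the 26 probes were measured. They belong to 5 of the 10 genes: Atm (3 of its 4 probes), Chek2 (2 of 3), H2ax (its 1 probe), Trp53bp1 (2 of 3) and Ung (2 of 5). The apical kinase Atr, the kinase Chek1, the mediators Mdc1 and Nbn and the tumour suppressor Brca1 had no measured probe. Of the 26 probes, 8 were detected on all 6 arrays, 2 on 5 arrays, 5 on 1 or 2 arrays and 11 on none. Of the probes of measured genes that were not kept, 1 of Atm, 1 of Chek2 and 2 of Ung were detected nowhere, and 1 of Trp53bp1 only on the Wip1Tg secondary array (detection p 0.00962).

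**Figure D1:**
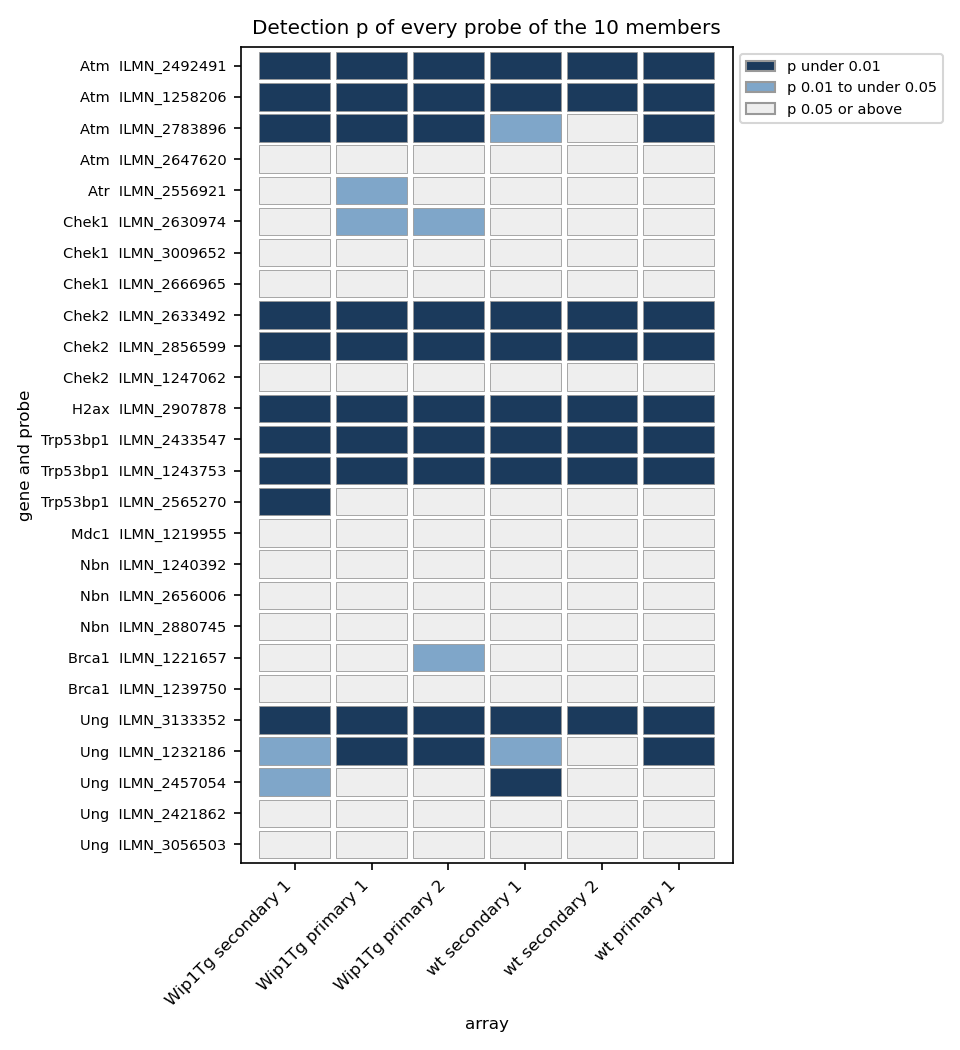
Detection p of each of the 26 probes (rows, with gene and probe name) on each of the 6 arrays (columns), in 3 bands: under 0.01, 0.01 to under 0.05, and 0.05 or above. The 8 rows that are filled on all arrays belong to Atm, Chek2, H2ax, Trp53bp1 and Ung, and the 11 rows with no fill include all 3 of Nbn and the 1 of Mdc1.

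Chek1, the kinase that acts below ATR and holds back the cell cycle when replication stalls, came closest to being measured. Its probe ILMN_2630974 was detected on both Wip1Tg primary arrays, with detection p-values of 0.031 and 0.0139, and on no other array. The log2 intensities were 5.20 in the Wip1Tg secondary array and 5.39 and 5.61 in the Wip1Tg primary arrays, against 4.83 and 4.91 in the wt secondary arrays and 5.19 in the wt primary array. Only the Wip1Tg primary values were above background, so no order is read among the other 4 arrays. This probe was left out of the test. The other 2 Chek1 probes were detected nowhere.

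Atr, the kinase of stalled forks, has 1 probe, which was detected on Wip1Tg primary 1 alone with a detection p of 0.0449. Brca1, a recombination protein that ATM phosphorylates, has 2 probes, of which 1 was detected, on Wip1Tg primary 2 alone, with a detection p of 0.0459. Mdc1, the adaptor that reads phosphorylated H2AX, came closest on the Wip1Tg secondary array, where its detection p was 0.0662. All 3 probes of Nbn, which brings ATM to breaks, stayed at or below a log2 intensity of 5.10. For these 5 genes a low RNA level and an insensitive probe cannot be told apart.

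The second question was how the transgene went with the RNA of the 5 measured genes. H2ax and Atm stood higher on each of the 3 Wip1Tg arrays than on any of the 3 wt arrays, Ung was higher on average, and for Chek2 and Trp53bp1 the genotypes overlapped. None of the 5 passed the test. The comparison used limma on background-corrected, quantile-normalised log2 intensities, with passage as a second term and p-values adjusted by Benjamini-Hochberg over 12755 features, each a named gene at its brightest measured probe or an unnamed probe. Differences are Wip1Tg minus wt. In spheres, which mix cell types, a change in the share of cells that express a gene and a change in RNA per cell cannot be told apart.

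Among the kinases, the brightest Atm probe read 9.35 in the Wip1Tg secondary array and 9.28 and 9.32 in the Wip1Tg primary arrays, against 9.18 and 9.15 in the wt secondary arrays and 8.92 in the wt primary array. The 3 Wip1Tg arrays lay close together and all above wt, with wt primary lowest. The difference was 0.28 (SE 0.12, 95% interval 0.006 to 0.556, 1.21-fold, limma unadjusted p = 0.04648, adjusted p = 0.4942). A second Atm probe separated the genotypes in the same way, at 6.92, 6.86 and 7.23 on the Wip1Tg arrays against 6.77, 6.62 and 6.55 on the wt arrays (difference 0.36, SE 0.16). The dimmest measured Atm probe, detected on 5 arrays, had 5.73, 5.60 and 5.65 on Wip1Tg arrays against 5.61, 5.28 and 5.59 on wt arrays, so there the groups overlapped (difference 0.16, SE 0.15).

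Chek2, the checkpoint kinase that ATM activates, read 6.23 in the Wip1Tg secondary array and 6.76 and 7.27 in the Wip1Tg primary arrays, against 6.50 and 6.24 in the wt secondary arrays and 7.08 in the wt primary array. Both genotypes spanned almost the same range, and the arrays were sorted by passage instead. The genotype difference was -0.10 (SE 0.175, 95% interval -0.52 to 0.32, limma adjusted p = 0.8689), and it was 0.07 for the second Chek2 probe.

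Among the chromatin substrates, H2ax gave the largest genotype difference of the 5 measured genes. Its probe read 10.58 in the Wip1Tg secondary array and 10.53 and 10.47 in the Wip1Tg primary arrays, against 10.03 and 9.71 in the wt secondary arrays and 10.22 in the wt primary array. The Wip1Tg arrays lay in a narrow band above all wt arrays, of which the secondary ones were lowest. The means were 10.52 ± 0.0528 in Wip1Tg and 9.99 ± 0.256 in wt (SD, n = 3 each), and with passage in the model the difference was 0.50 (SE 0.16, 95% interval 0.12 to 0.87, 1.41-fold, limma unadjusted p = 0.01717, adjusted p = 0.455). Within secondary spheres it was 0.71 (SE 0.19, limma adjusted p = 0.3179) and within primary spheres 0.28 (SE 0.19, limma adjusted p = 0.7643).

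Trp53bp1, whose product steers breaks towards end joining, read 9.61 in the Wip1Tg secondary array and 10.17 and 9.92 in the Wip1Tg primary arrays, against 9.71 and 9.88 in the wt secondary arrays and 9.96 in the wt primary array. The Wip1Tg arrays held both the lowest and the highest value, so the genotypes overlapped. The difference was -0.05 (SE 0.14, limma adjusted p = 0.924). Its second probe was the least settled of the set. It read 7.39, 7.02 and 7.23 on the Wip1Tg arrays in the same order, against 6.66, 6.94 and 7.42 on the wt arrays, and differed by 0.59 within secondary spheres and by -0.29 within primary spheres. With every probe fitted separately, the interaction of genotype and passage for this probe was 0.88 (limma unadjusted p = 0.02486, adjusted p = 0.4698), and that of the brightest probe was -0.26, so the 2 probes differed in sign.

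Ung read 8.56 in the Wip1Tg secondary array and 8.997 and 9.002 in the Wip1Tg primary arrays, against 8.07 and 7.63 in the wt secondary arrays and 8.85 in the wt primary array. Within each passage the Wip1Tg arrays were above wt, but the wt primary array exceeded the Wip1Tg secondary one, so the genotypes overlapped. The difference was 0.43 (SE 0.19, 95% interval -0.017 to 0.877, 1.35-fold, limma adjusted p = 0.5067), with 0.71 in secondary and 0.15 in primary spheres. On the second Ung probe the Wip1Tg secondary array, at 5.53, lay below wt secondary 1, at 5.67, and the genotype difference was 0.27 (SE 0.225, limma adjusted p = 0.7189 with every probe fitted).

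Of the 5 measured members, 0 passed for genotype at an adjusted p under 0.05, as did 0% of all 12755 features. At an unadjusted p under 0.05 there were 1286 features, H2ax and Atm among them. With trended and robust variance limma called 1 feature, which was no member. Every Wip1Tg array stood above every wt array for 2 of the 5 members, against 4.74% of all features. The median difference was 0.281 over the 5 members and 0.008 over all features. Over 22 alternative settings no member passed, H2ax ranged from 0.28 to 0.71 (adjusted p 0.3179 to 0.9814), and Atm from 0.063 to 0.38 (adjusted p 0.3817 to 0.9814).

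**Figure D2:**
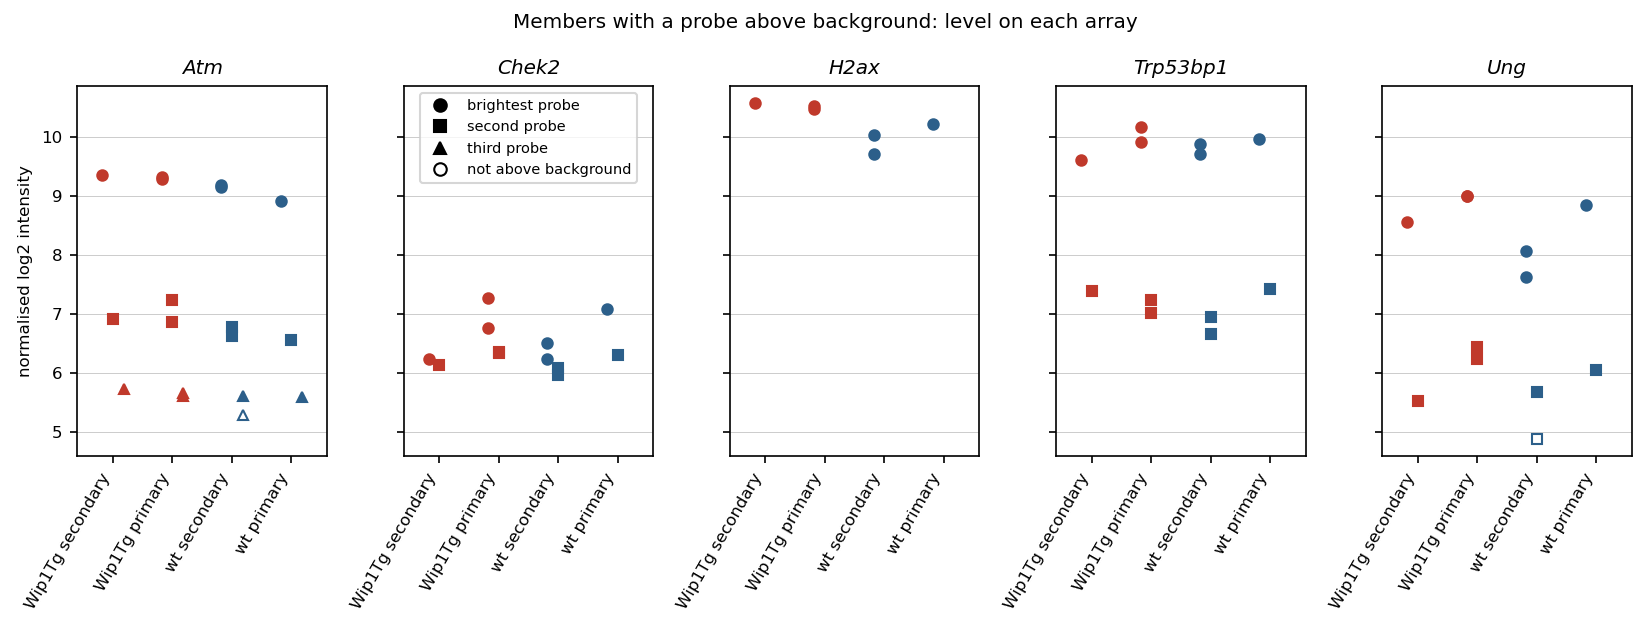
Normalised log2 intensity of the 10 measured probes of the 5 measured genes, 1 panel a gene, with 1 point per array in each group (2 arrays in Wip1Tg primary and wt secondary, 1 in the other groups; open symbols, not above background on that array). H2ax and the 2 brighter Atm probes are higher on all Wip1Tg arrays, and Chek2 and Ung are lower in secondary than in primary spheres of each genotype.

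The third question was how the genes differed between secondary and primary spheres. Chek2 and Ung fell in secondary spheres, and Trp53bp1 stood lower on each secondary array without passing. Differences here are secondary minus primary, from the same limma fit with genotype as the other term. Chek2 averaged 6.32 ± 0.15 in secondary spheres and 7.04 ± 0.26 in primary spheres (SD, n = 3 each), with all 3 secondary arrays below all 3 primary ones. It fell by 0.75 (SE 0.175, 95% interval -1.166 to -0.329, 1.68-fold lower, limma adjusted p = 0.02318). The second Chek2 probe had 6.13 in Wip1Tg secondary and 6.09 and 5.97 in wt secondary spheres, against 6.33 and 6.36 in Wip1Tg primary and 6.30 in wt primary spheres. It was again lower on every secondary array, by a smaller step that did not pass (-0.24, limma adjusted p = 0.1766 with every probe fitted).

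Ung averaged 8.09 ± 0.466 in secondary spheres and 8.95 ± 0.0855 in primary spheres (SD, n = 3 each). The 3 primary arrays lay within a narrow band and all secondary arrays below it, the 2 wt ones furthest. Ung fell by 0.72 (SE 0.19, 95% interval -1.168 to -0.275, 1.65-fold lower, limma adjusted p = 0.03138). The second measured Ung probe read 5.53 in Wip1Tg secondary and 5.67 and 4.87 in wt secondary spheres, against 6.24 and 6.43 in Wip1Tg primary and 6.05 in wt primary spheres. It was below every primary value on each secondary array, not above background on wt secondary 2, and also fell with every probe fitted (-0.79, limma adjusted p = 0.04389). Another probe, ILMN_2457054, went the other way near the background. It was detected on Wip1Tg secondary 1 and wt secondary 1 only, and its values on the secondary arrays (5.63, 5.76 and 5.34) all exceeded those on the primary arrays (4.75, 5.02 and 4.87). Whether the Ung probes read different transcripts was not tested.

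Trp53bp1 averaged 9.73 ± 0.138 in secondary spheres and 10.01 ± 0.133 in primary spheres (SD, n = 3 each). On this brightest probe the passages did not overlap, yet the difference of -0.30 did not pass (SE 0.14, limma adjusted p = 0.1557). On the second probe they overlapped, and the difference was -0.175 (SE 0.22, limma adjusted p = 0.5911 with every probe fitted). H2ax differed by -0.13 (SE 0.16, limma adjusted p = 0.5554) and Atm by 0.14 (SE 0.12, limma adjusted p = 0.3878), and both overlapped between passages.

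In all, 2 of the 5 measured members, Chek2 and Ung, passed for passage, both lower in secondary spheres. Of all features 28.1% passed in either direction and 13.8% in the lower one. All secondary arrays lay below all primary arrays for 3 of the 5 members, against 21.8% of all features. The median passage difference was -0.299 over the members and 0.042 over all features. Both calls rested on few arrays. Without wt primary 1 the passage difference came from the Wip1Tg arrays alone, and without Wip1Tg secondary 1 from the wt arrays alone. Among the wt arrays Xist signal and passage coincided. Chek2 was past the threshold in 17 of 22 alternatives (-1.094 to -0.325, adjusted p 0.00395 to 0.1391), and lost its call without wt primary 1 (-0.78, limma adjusted p = 0.1035), without wt secondary 2 (-0.70, limma adjusted p = 0.05025) and without Wip1Tg secondary 1 (-0.71, limma adjusted p = 0.1391). Ung was past it in 13 of 22 (-1.05 to -0.44, adjusted p 0.008565 to 0.361). It kept its call without wt secondary 2 and lost it without each of the other 5 arrays. The difference was -0.44 without wt primary 1 (limma adjusted p = 0.2245) and -0.761 to -1.003 in the other 4 fits that lost the call (adjusted p 0.051 to 0.05824). On the 4 arrays with Xist signal, no wt primary array was left. The passage difference there was Wip1Tg secondary 1 minus Wip1Tg primary 2, 1 array against 1 array. It was -1.04 for Chek2, -0.44 for Ung, -0.305 for Trp53bp1, 0.026 for Atm and 0.106 for H2ax.

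**Figure D3:**
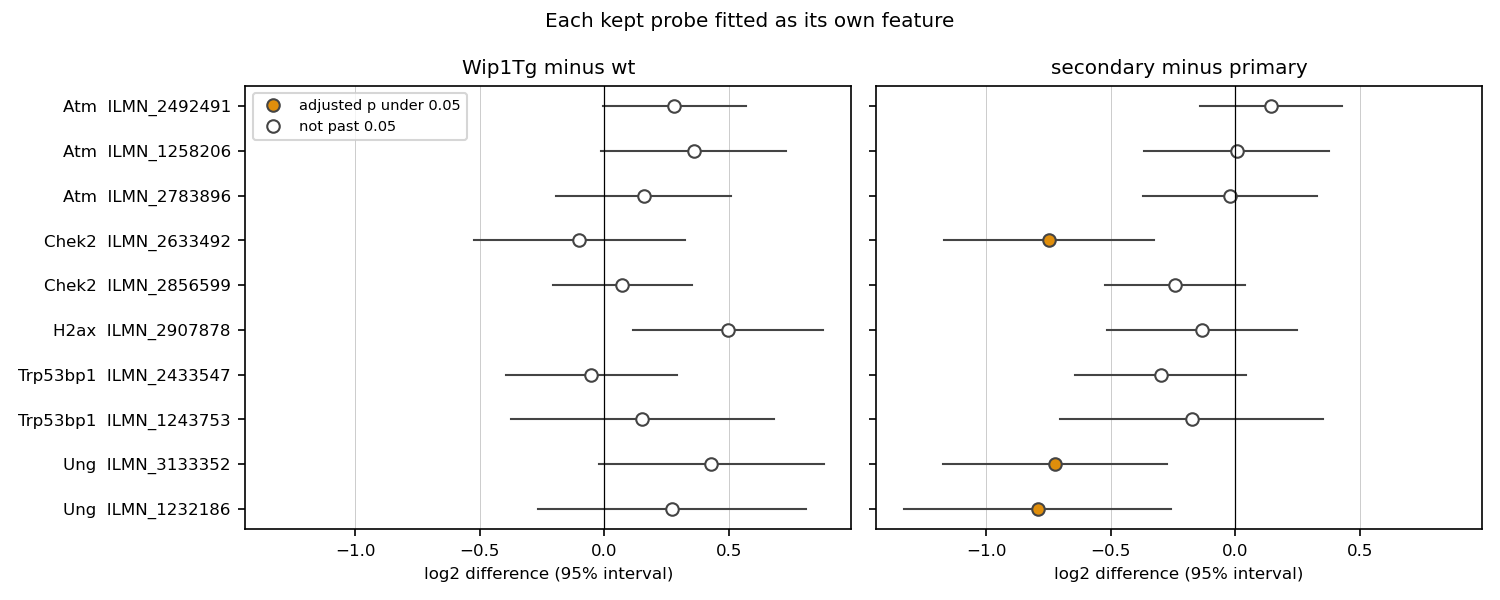
Log2 differences of the 10 measured probes, Wip1Tg minus wt on the left and secondary minus primary on the right, with 95% intervals, each probe fitted as its own feature (n = 3 arrays per side). Filled points passed an adjusted p of 0.05: the brightest probe of Chek2 and 2 probes of Ung for passage, and none for genotype.

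The start regions of the genes that fell are shown because those letters can be searched for elements known from genes expressed in cycling cells. RefSeq's promoter table (GRCm38.p6) holds windows for 8 members: Atm, Atr, Chek1, Chek2, Trp53bp1, Mdc1, Brca1 and Ung. The 250 bases before the start were read at chr5:110839733-110839982 (plus strand) for Chek2, chr5:114130185-114130434 (plus strand) for Ung and, as a gene that did not fall, chr9:53536672-53536921 (minus strand) for Atm. Each is printed 5′ to 3′ on the gene's strand, and capitals mark matches to the words searched.
Chek2: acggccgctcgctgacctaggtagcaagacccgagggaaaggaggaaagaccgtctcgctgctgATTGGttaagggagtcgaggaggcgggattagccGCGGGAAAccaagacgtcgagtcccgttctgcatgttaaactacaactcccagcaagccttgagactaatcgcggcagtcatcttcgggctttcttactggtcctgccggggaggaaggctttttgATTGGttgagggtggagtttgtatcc
Ung: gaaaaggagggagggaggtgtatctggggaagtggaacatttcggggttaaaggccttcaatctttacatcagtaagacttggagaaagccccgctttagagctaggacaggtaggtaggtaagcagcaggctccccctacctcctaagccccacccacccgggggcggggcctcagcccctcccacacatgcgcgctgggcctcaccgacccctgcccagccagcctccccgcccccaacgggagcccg
Atm: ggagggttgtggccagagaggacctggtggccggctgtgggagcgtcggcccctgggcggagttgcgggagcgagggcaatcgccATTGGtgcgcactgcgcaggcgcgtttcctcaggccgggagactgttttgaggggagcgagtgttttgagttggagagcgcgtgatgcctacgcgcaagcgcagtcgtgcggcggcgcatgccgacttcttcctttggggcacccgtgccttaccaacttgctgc
The search covered both strands for E2F words (TTTCCCGC, TTTCGCGC, TTTGCCGC or TTTGGCGC), the CCAAT box (CCAAT) and the cell-cycle homology region (TTTGAA). In the Chek2 window the capitals GCGGGAAA are the E2F word TTTCCCGC on the minus strand, 152 bases before the start, and both ATTGG runs are CCAAT on the minus strand, 186 and 26 bases before it. The Ung window held no match to any of these words, and the Atm window held 1 minus-strand CCAAT, 165 bases before the start. Over the 8 member windows, E2F words occurred in 2 (Chek2 and Mdc1), CCAAT in 4 (Chek2, Mdc1, Atm and Brca1) and TTTGAA in 0. Among all 32851 windows of that length the shares were 1.86%, 33.8% and 16%. A match is a run of letters and not a measured binding site.

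Whether the genotype difference itself differed between passages was tested as an interaction, the Wip1Tg minus wt difference in secondary spheres minus that in primary spheres. It was 0.56 for Ung (SE 0.31, limma adjusted p = 0.6034), 0.425 for H2ax (SE 0.27, limma adjusted p = 0.6394), -0.20 for Atm (adjusted p = 0.774), -0.26 for Trp53bp1 (adjusted p = 0.7618) and -0.07 for Chek2 (adjusted p = 0.9572). So 0 of 5 members passed, as did 0% of all features, of which 1196 had an unadjusted p under 0.05. With trended and robust variance 9 features passed and on the authors' normalised values 6, none of them a member. The intervals were wide, from -0.232 to 1.359 for Ung and from -0.259 to 1.109 for H2ax.

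The genes whose values were most like those of the members over the 6 arrays were sought among 9724 named genes, by the root mean square difference after centring each gene on its mean. For Atm these were Unk (0.0371 log2 units), Dhodh (0.0426) and Ep400 (0.0485). For H2ax they were Rbmx (0.0636), Rpf2 (0.0653) and Ing2 (0.0726). Chek1 was not measured, so none was named for it. With 6 arrays such a ranking is a description of these samples.

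Around the members, 8 lists of other damage response genes held 142 entries, of which 131 had a probe and 107 were measured. For genotype 0 of these 107 passed. Their median difference was 0.137, with 74 positive and 33 negative, beside 51.6% positive among all features. Under median scaling, which put the median of all features at -0.19, 41 were positive and 66 negative, and 73 lay above the median of all features. Every Wip1Tg array stood above every wt array for 17 of the 107 (15.9%, against 4.74% of all features). For passage 6 rose and 16 fell in secondary spheres and 85 did not pass, with a median of -0.156. The 22 called genes were 20.6% of the lists, against 28.1% of all features. Falls made up 15% of the lists against 13.8% of all features, and rises 5.61% against 14.3%. The same shares of all features, 13.8% for falls and 14.3% for rises, stand beside the main-fit counts of every list below. They do not apply to counts under other settings or with an array left out. Among the 12755 features, median scaling gave 626 rises and 3235 falls, and cyclic loess 1526 and 2046. Median scaling gave 1 rise and 40 falls, and the fit on 5 arrays gave 1 and 5 without Wip1Tg secondary 1 and 2 and 7 without wt primary 1. The rises also numbered 2 without Wip1Tg primary 1 and without wt secondary 1. Of the 20 genes named below as past the threshold for passage, Rad9a and Pkmyt1 kept their calls whichever single array was left out, as did Rad18, which passed the filter only through the primary arrays. The other 17 lost theirs without Wip1Tg secondary 1, 15 of them also without wt primary 1, and Herc2, Blm, Polm and Parp1 lost theirs without any 1 of the 6 arrays. On the 4 arrays with Xist signal the passage difference set Wip1Tg secondary 1 against Wip1Tg primary 2 alone. There Pkmyt1 differed by 1.353, Rad9a by -1.699 and Rad18 by -1.076.

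Genes that act beside ATM and ATR as sensors and activators (17 measured) had 1 rise and 3 falls in secondary spheres. Hus1, part of the 9-1-1 clamp that loads ATR's activator, rose by 0.59 (limma adjusted p = 0.029). Its levels were 10.98 in Wip1Tg secondary and 10.76 and 10.52 in wt secondary spheres, against 10.40 and 10.11 in Wip1Tg primary and 10.18 in wt primary spheres. Rad9a, of the same clamp, fell by 1.30 (limma adjusted p = 0.003153), although its other measured probe differed by 0.09. Mre11a, the nuclease partner of NBN in the MRN complex, fell by 0.80 (limma adjusted p = 0.01032), at 7.21 in Wip1Tg secondary and 6.87 and 7.11 in wt secondary spheres against 8.25 and 8.15 in Wip1Tg primary and 7.59 in wt primary spheres. All 3 secondary arrays were below all primary ones for Mre11a. Clspn, the adaptor through which ATR reaches CHK1, fell by 0.67 (limma adjusted p = 0.04425). The smallest genotype p of this list was that of the fork protection gene Tipin, at 0.45, which did not pass (limma adjusted p = 0.455). Its other measured probe differed by 0.056.

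Of the mediators and ubiquitin ligases that act around the products of Trp53bp1 and Brca1 (14 measured), 2 rose in secondary spheres and 0 fell, against 0 and 4 under median scaling. These were Rif1, the partner of the Trp53bp1 product, by 0.675 (limma adjusted p = 0.04834), detected on all 3 secondary but 1 primary array, and the ubiquitin ligase Herc2 by 0.48 (limma adjusted p = 0.04386). Rif1 was called in 2 of 20 alternatives (0.209 to 0.798, adjusted p 0.03271 to 0.4923), with the smallest difference on the authors' normalised values. The ligase Rnf168 had the smallest genotype p, with 0.31 (limma adjusted p = 0.4855). In homologous recombination (18 measured) the single-strand binding subunit Rpa3 rose by 0.49 (limma adjusted p = 0.03325). The recombination motors Rad54b and Rad54l fell by 0.81 and 0.77 and the helicase Blm by 0.50, with limma adjusted p-values of 0.02628, 0.01857 and 0.04057. Rad54l also had the smallest genotype p of that list, at 0.73 (limma adjusted p = 0.4345). Of all features 54% had positive passage values. In the Fanconi list all 9 measured genes had negative passage values and 0 passed, against 4 under median scaling and 1 under cyclic loess. Fancc came closest (-0.66, limma adjusted p = 0.05178). It passed in 8 of 22 alternatives (adjusted p 0.004493 to 0.3538), and its lowest value, -1.094, came with wt primary 1 left out and its highest, -0.232, with Wip1Tg secondary 1 left out. The smallest genotype p of that list was that of Ube2t, the ubiquitin-conjugating enzyme of the pathway, at 0.76 (limma adjusted p = 0.4845), with 0.299 to 1.22 as single arrays were left out.

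Ung belongs to base excision repair, where 19 other genes were measured, 3 fell in secondary spheres and 0 rose, against 7 and 0 under median scaling. Lig1, the replicative DNA ligase, fell by 0.80 (limma adjusted p = 0.01471), with its 4 probes between -1.065 and 0.15. The glycosylase Neil1 fell by 0.535 (limma adjusted p = 0.04012) and the strand-break sensor Parp1 by 0.45 (limma adjusted p = 0.04206). Dut, the dUTPase that keeps uracil out of DNA and so limits the substrate of UNG, had the smallest genotype p of the list, at 0.67 (SE 0.14, limma adjusted p = 0.4345). Its values were 7.61 in Wip1Tg secondary and 7.08 and 7.35 in Wip1Tg primary spheres, against 6.87 and 6.71 in wt secondary and 6.70 in wt primary spheres. All Wip1Tg arrays thus stood above all wt arrays for Dut without passing. In end joining (6 measured) 1 gene passed, the polymerase gene Polm, which fell by 0.45 in secondary spheres (limma adjusted p = 0.03668), with its second probe at 0.002. Polm also had the smallest genotype p there, at -0.43 (limma adjusted p = 0.441), with its second probe at 0.129.

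Checkpoint effectors downstream of CHK1 and CHK2 (15 measured) had 1 rise and 5 falls in secondary spheres. Pkmyt1, a kinase that restrains CDK1, rose by 1.77 (limma adjusted p = 0.001464), but its other measured probe differed by -0.13. Cdc25c, the CDK1-activating phosphatase that CHK1 and CHK2 inhibit, fell by 1.08 (limma adjusted p = 0.008188). It read 6.86 in Wip1Tg secondary and 6.72 and 6.15 in wt secondary spheres, against 8.07 and 8.10 in Wip1Tg primary and 7.36 in wt primary spheres. The mitotic kinase Plk1 fell by 0.97 (limma adjusted p = 0.01827), and it had the smallest genotype p of its list, at 0.755 (limma adjusted p = 0.441). Rad18, a ubiquitin ligase of damage tolerance, was above background on all 3 primary and on no secondary array and was at least 1.87-fold lower in secondary spheres. It entered the test only through the primary arrays. Among the phosphatases of the response (9 measured) Ppm1d rose in secondary spheres by 0.69 (limma adjusted p = 0.009851) and Ppp1ca, a catalytic subunit of protein phosphatase 1, fell by 0.53 (limma adjusted p = 0.01561). The smallest genotype p there was that of Ppp1cc, at 0.49 (limma adjusted p = 0.4845), with its other probe at -0.04. Its difference was 0.113 without Wip1Tg secondary 1 and 0.873 without wt primary 1.

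**Figure D4:**
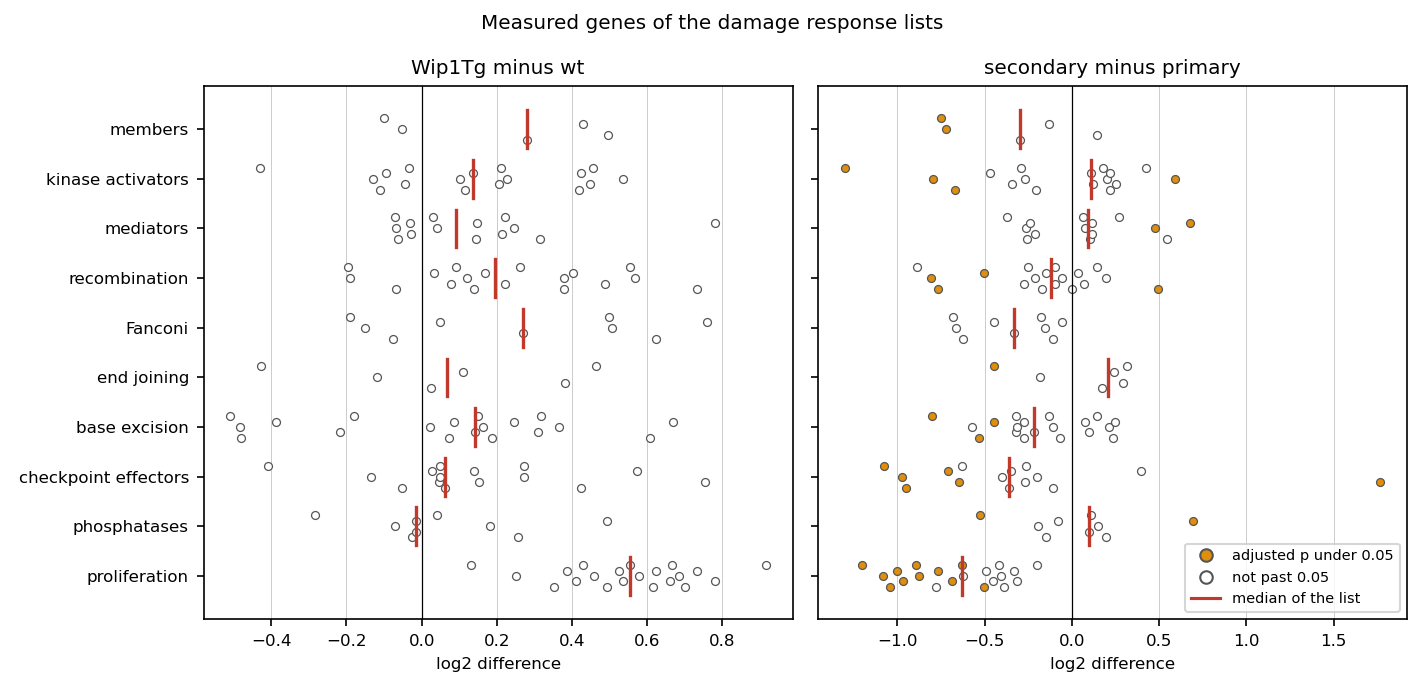
Log2 differences of each measured gene of the members' set, of the 8 damage response lists and of the proliferation list (rows), Wip1Tg minus wt on the left and secondary minus primary on the right, on axes of different length (n = 3 arrays per side). Each point is 1 gene, red bars mark list medians, and filled points passed an adjusted p of 0.05: none for genotype, and 6 higher and 16 lower among the 107 listed damage response genes for passage.

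A list of 26 proliferation genes was read beside the members. All 21 measured genes had positive genotype values (median 0.554 against 0.008 over all features, 0 passed), against 20 of them under median scaling. Among all features 51.6% had positive genotype values and 54% positive passage values. Of the 21, 8 were higher on every Wip1Tg array than on any wt array, against 4.74% of all features. All 21 had negative passage values (median -0.632 against 0.042 over all features), and 11 fell in secondary spheres, against 13.8% of all features. The smallest passage p-values belonged to Cdc20, Birc5 and Rrm2, which fell by 1.20, 1.00 and 0.88 (limma adjusted p-values 0.003509, 0.005931 and 0.01189). The smallest genotype p-values belonged to Rrm2, Mcm2 and Cdc20, at 0.70, 0.685 and 0.62, none of which passed (limma adjusted p = 0.4345 for each). The 3 measured probes of Rrm2 lay between 0.187 and 0.757. The list's mean log2 level was 8.74 in Wip1Tg secondary and 9.14 and 9.41 in Wip1Tg primary spheres, against 8.28 and 7.83 in wt secondary and 8.87 in wt primary spheres. Its summed linear level ran from 13570 to 21600 on the Wip1Tg arrays and from 7056 to 14560 on the wt arrays, and by passage from 7056 to 13570 on secondary and from 14560 to 21600 on primary arrays. Ung was ordered over the 4 groups as this mean was, highest in Wip1Tg primary and lowest in wt secondary spheres, and H2ax was also lowest in wt secondary spheres. Chek2 (-0.10) and Trp53bp1 (-0.05) for genotype, and Atm (0.14) for passage, had the opposite sign to the list. The part of these genes in the values of H2ax, Ung and Chek2 was not tested.

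**Figure D5:**
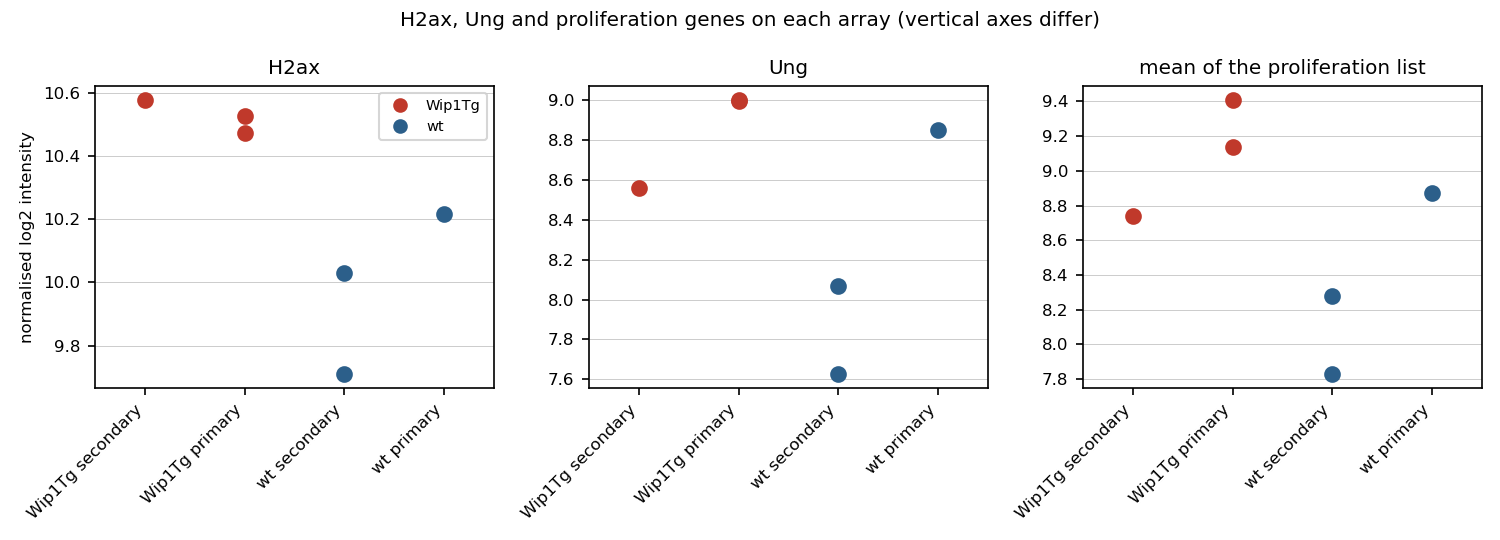
Normalised log2 intensity of H2ax, of Ung and of the mean of the 21 measured proliferation genes on each array, by group, with 1 point per array and a separate vertical axis for each panel. All 3 were lowest in wt secondary spheres, and Ung (8.997 and 9.002) and the proliferation mean (9.14 and 9.41) were highest in Wip1Tg primary spheres.

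Markers of other cell types also differed between the passages and, without passing, between the genotypes. Of 9 astrocyte markers, all measured, 5 rose and 1 fell in secondary spheres (median passage difference 0.882), against 14.3% and 13.8% of all features. The 1 that fell was Gfap (-1.38, limma adjusted p = 0.005743), and Aldh1l1 was negative without passing (-0.15). S100b, among the 5 that rose, was detected on 3 secondary and 0 primary arrays and entered the test only through the secondary ones. The summed linear level of the 9 ran from 101600 to 117700 on secondary and from 62120 to 73250 on primary arrays. By genotype that sum ran from 62120 to 101600 on Wip1Tg arrays and from 73250 to 117700 on wt arrays, and none of the 9 passed. Of 7 measured markers of the oligodendrocyte lineage, 0 rose and 2 fell in secondary spheres. By genotype 6 of the 7 had negative values (median -0.388) and 0 passed. Their summed linear level ran from 3840 to 5037 on Wip1Tg arrays and from 5523 to 6836 on wt arrays, with no overlap. Such a sum is weighted to bright markers such as Cnp, whose own values overlapped between the genotypes. The share of all features that were lower on every Wip1Tg array is not given here. Mbp and Mag, chosen after their values were seen, were at -1.76 and -1.71 (limma adjusted p = 0.4345 for each). They were the only 2 of the 7 that were lower on every Wip1Tg array than on any wt array, and Cspg4 was positive (0.097). Of 4 measured ependymal markers 0 rose and 3 fell in secondary spheres, and their summed linear level ran from 415.4 to 521.4 on secondary and from 651.2 to 1040 on primary arrays. Of 4 measured neuronal markers 1 rose (Dcx) and 1 fell (Stmn2). Dcx was detected on 3 secondary and 0 primary arrays, and Stmn2 on 0 secondary and 3 primary arrays. Both entered the test only through the arrays where they were high. Of the 7 stem and progenitor markers 1 rose and 1 fell. The 1 measured marker of endothelium fell, and 0 of the 2 of microglia and 0 of the 1 of mural cells and fibroblasts passed. The part of these cell types in the values of H2ax, Atm, Chek2 and Ung was not tested.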

How the data were processed

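RNA of 6 neurosphere samples was read on 1 Illumina MouseWG-6 beadchip. Per the file headers, the main deposited table gives the intensity of 45281 probes on each array, with no normalization, and beside it a detection p-value. In the other deposited table the authors had normalized the intensity between arrays, as its equal column medians (161.57) show, and it served as an alternative. The scanner software is not given in the sources used here. With limma 3.58.1 in R 4.3.3, neqc corrected the background from the detection p-values, added an offset of 16, normalized quantiles and took log2. A probe was kept if 3 or more of the 6 arrays gave it a detection p under 0.05 (18274 probes). The platform annotation gave 1 symbol for 34885 probes, several for 18 and none for 10378. Of a gene with several kept probes the brightest was used, which left 12755 features (10167 named genes and 2588 unnamed probes).

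Genotype and passage were fitted together (3 residual degrees of freedom) and with their interaction (2), using eBayes and Benjamini-Hochberg adjustment over all features. Within a passage, the spread of a group with 1 array was taken from the other groups. Called means an adjusted p under 0.05. The fit was tested on simulated data with independent noise and planted changes of 1 or 2 log2 units. Smaller changes were not simulated, and in the main fit every genotype and passage difference of the measured members was smaller than 1 log2 unit. The members, the lists and the rule for named genes were chosen with earlier results of these data known. The rule took all members and Ppm1d. From each damage response list and for each factor it took up to 3 genes past the threshold in each direction by size, or else the gene of smallest p. It took 3 proliferation genes per factor, Xist and other sex-linked genes as a label check, and the 3 genes most like Atm, Chek1 and H2ax. "At least" marks a fold against a group with no array above background. It divides the mean of the brighter group by a floor, which on each array of the other group is the probe's value or, if higher, the lowest detected value. Alternatives varied background correction, normalization, offset, filter, choice of probe, variance and covariates, and left out each array. The authors' values and quantile normalization without background correction gave the same genotype values and the same counts of calls. The number of alternatives thus counts 1 analysis under 2 names. The precision of all values is limited by the number of arrays.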

Additional observations from a re-analysis of the deposited data

How the results depend on the processing

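Of 250 values of the 15 member results under the alternatives, 224 kept direction and side of the threshold, 14 fell short of it, 1 passed it and 11 changed sign. For features called for passage (3583), the count was 918 without moderation, 1112 with Xist as a term, 1101 on the arrays with Xist signal and 1363 to 3034 as single arrays were left out (1855 without wt primary 1, 2356 without wt secondary 1, 1363 without Wip1Tg secondary 1). Members called for passage (2) numbered 1 with no filter on dim probes, 0 without moderation, 1 with Xist as a term, 0 on the arrays with Xist signal and 0 to 1 as single arrays were left out. Damage response genes called higher (6) numbered 1 under median scaling, 0 without moderation, 1 with Xist as a term and 1 on the arrays with Xist signal, and genes called lower (16) numbered 40, 3, 2 and 2. As single arrays were left out they numbered 1 to 4 and 5 to 13. Features called for genotype numbered 1 with trended and robust variance, and for the interaction 9 with that setting and 6 on the authors' values. Median scaling split passage calls into 626 higher and 3235 lower, beside 1826 and 1757. It put the median of all features at -0.19 for genotype and -0.244 for passage, beside 0.008 and 0.042 in the main fit. Relative to that median Chek2 was at -0.82 and Ung at -0.81 for passage, and H2ax at 0.46 and Atm at 0.25 for genotype. Under it Atm changed sign for passage (-0.19) and Trp53bp1 passed (-0.63, limma adjusted p = 0.01663; adjusted p over its alternatives 0.01663 to 0.6201). The sign also changed for Trp53bp1 genotype with the mean of probes (0.05), without the passage term (0.047) and as single arrays were left out (-0.183 to 0.078; 0.004 without wt secondary 2, 0.078 without Wip1Tg secondary 1). It changed for Chek2 genotype without the passage term (0.148) and as single arrays were left out (-0.216 to 0.004, the highest without Wip1Tg primary 1), and for the Chek2 interaction in the same way (-0.331 to 0.183; 0.183 without Wip1Tg primary 2, 0.054 without wt secondary 1). H2ax changed sign for passage on the arrays with Xist signal (0.106) and without wt primary 1 (-0.346 to 0.079 as single arrays were left out). None of these sign changes concerned a called value, and the cause of the changes was not tested. The interaction could not be fitted without wt primary 1 or without Wip1Tg secondary 1. In those 2 fits the passage difference came from 1 genotype alone, as it did on the arrays with Xist signal. Of 785 values of 36 results for listed genes, 609 kept side and direction, 168 fell short of the threshold, 8 passed it and 0 changed sign. No paired analysis was possible because the 2 groups that share replicate numbers, Wip1Tg primary and wt secondary, differ in both factors.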
